A study of Mus musculus with 8 samples.

Results

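The 8 genes described here are the constant-region genes of the antibody heavy chain Ighm, Ighd, Ighg1, Ighg2b, Ighg2c, Ighg3 and Igha, and Jchain, which encodes the chain that joins IgM and IgA into polymers. They were matched by symbol, and each of the 8 was found once among 33696 genes. Leukocytes infiltrating liver metastases were profiled with 5' single-cell RNA sequencing in 2 mice labelled Vav1CreTet2KO and 2 mice labelled Tet2fl/fl, numbered knockout 1 and 2 and control 1 and 2 below. Vav1-Cre is a recombinase driven by a promoter active across the blood lineages, so the floxed Tet2 gene, which encodes an enzyme that oxidises 5-methylcytosine, is targeted in all leukocytes and not in B cells alone; the control mice carry the floxed gene without a named Cre. All 4 mice received Venus-AKTPM/LOH colorectal cancer cells by injection into the spleen, and tumours were taken at day 30. Live CD45.2-stained cells were sorted after collagenase digestion and a density gradient, and plasma cells are known to carry less CD45 than B cells do. Strain, age and sex were not given in the sources used here. The labels number the libraries of a genotype as biological replicates.

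A naive B cell transcribes 1 rearranged variable region with the constant regions Ighm and Ighd, which lie next to it and are chosen by alternative splicing and termination, so that the cell carries IgM and IgD with the same specificity. In class switch recombination the DNA is broken in the switch regions before the constant genes, and the DNA between the breaks is lost, so the cell then makes IgG, IgA or IgE and no longer IgM. When a B cell becomes a plasma cell it turns its transcription to the secreted form of its chain and loses Ighd, and Jchain rises. The isotype that a cell carries can therefore be read from its constant-region transcripts.

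The 7 constant genes lay on chromosome 12 of GRCm39 in the order Ighm, Ighd, Ighg3, Ighg1, Ighg2b, Ighg2c and Igha, on the minus strand. Ighm (ENSMUSG00000076617) spanned chr12:113382178-113386350, Ighd (ENSMUSG00000104213) chr12:113370224-113379944, Ighg3 (ENSMUSG00000076615) chr12:113319844-113324852 and Ighg1 (ENSMUSG00000076614) chr12:113288860-113294143. Ighg2b (ENSMUSG00000076613) spanned chr12:113266585-113271553, Ighg2c (ENSMUSG00000076612) chr12:113248945-113252552 and Igha (ENSMUSG00000095079) chr12:113218450-113223856. Jchain (ENSMUSG00000067149) lay apart, at chr5:88667668-88675750 on the minus strand.

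A 5' library reads into a heavy chain transcript from the variable region, so the start of the constant region is the stretch that tells the isotypes apart. The isotypes below come from deposited counts per gene, which do not show the part of a gene that was read. The opening 60 bases of the first constant-region exon of each gene are shown in transcript orientation to set out their differences. Capitals mark the 22 of 60 positions at which the 4 IgG genes do not all share a base, and the other 3 genes are in lower case throughout.
Ighm: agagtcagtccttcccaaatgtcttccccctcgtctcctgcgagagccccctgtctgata
Ighd: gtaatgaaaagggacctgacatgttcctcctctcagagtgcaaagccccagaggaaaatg
Ighg3: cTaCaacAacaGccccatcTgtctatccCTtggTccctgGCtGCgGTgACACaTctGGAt
Ighg1: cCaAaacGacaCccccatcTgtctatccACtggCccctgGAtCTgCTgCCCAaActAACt
Ighg2b: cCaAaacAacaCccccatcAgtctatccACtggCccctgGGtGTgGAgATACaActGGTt
Ighg2c: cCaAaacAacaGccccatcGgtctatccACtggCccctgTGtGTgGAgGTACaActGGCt
Igha: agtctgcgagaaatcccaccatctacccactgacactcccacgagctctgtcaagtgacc

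Over the whole exon Ighg1 and Ighg2b were identical at 88.3% of aligned positions, Ighg1 and Ighg2c at 88.0% and Ighg2b and Ighg2c at 87.6%. Ighg3 shared 78.4% to 79.0% with the other IgG genes, and every pair that includes Ighm, Ighd or Igha shared 45.3% to 52.2%. No stretch of 60 bases within the exon was identical in another of the 7 genes. Over all annotated exons 2.97% of such stretches in Ighg2b, 4.12% in Ighg2c and 1.34% in Ighg3 were, so reads from the downstream exons of these 3 genes could in part be ambiguous, and whether such reads were counted was not tested.

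After filtering, 10432 and 11123 cells of the knockout mice and 11834 and 13083 cells of the control mice were used, from libraries of 57190926 to 91789597 unique molecular identifiers (UMIs, counted transcript molecules). Cells were clustered without any immunoglobulin gene or Jchain, and clusters were named from markers that include none of the members, so the classes below do not rest on the genes they are compared for. B-like cells, named from Ms4a1, Cd79a, Pax5 and related markers, numbered 4394, 4933, 689 and 618 in knockout 1, knockout 2, control 1 and control 2, and plasma-like cells, named from Sdc1, Xbp1, Mzb1 and related markers, 50, 54, 66 and 37. B-like cells made up 42.1% and 44.3% of knockout cells and 5.82% and 4.72% of control cells, and plasma-like cells 0.479%, 0.485%, 0.558% and 0.283%. Every pair of libraries shared 272 to 303 barcode sequences, which is 2.3% to 2.7% of the smaller library. Tet2 stood at 31.8 and 28.5 against 48.6 and 34.4 CPM in B-like cells, where CPM are UMIs per 1000000 UMIs of the summed cells. In plasma-like cells it did not separate the genotypes, at 23.7 and 9.45 against 20.02 and 10.3 CPM on 6 to 30 UMIs, and these gene-level counts do not show which exons were read. Values below are in the order knockout 1, knockout 2, control 1 and control 2. A log2 change is that of knockout over control and is given ± its standard error, and a mean share is given ± the SD of the 2 mice. Genes are said to have risen, fallen or been called where edgeR's quasi-likelihood test gave a Benjamini-Hochberg adjusted p under 0.05 over all genes tested. The log2 changes use library sizes scaled by TMM factors and so can differ from the ratio of the CPM printed beside them.

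Over all sorted cells the IgM and IgD transcripts were several times as abundant in the knockout mice, while Igha and Jchain varied as much within a genotype as between them. Ighm, the constant region of IgM, stood at 479 and 467 against 103 and 100 CPM and Ighd, that of IgD, at 84.0 and 91.5 against 6.33 and 8.24 CPM. Both knockout mice lay above both control mice for each gene, and the edgeR log2 changes were 1.97 ± 0.10 for Ighm (adjusted p = 0.000308) and 3.35 ± 0.18 for Ighd (adjusted p = 0.00032). Ighg2b, an IgG constant gene, stood at 65.7 and 49.4 against 24.5 and 18.7 CPM and rose by 1.17 ± 0.18 (edgeR adjusted p = 0.0046). Its UMIs came in large part from very few cells: the cell with most Ighg2b UMIs gave 48.4%, 86.6%, 50.5% and 56.0% of them. Thus 3 of the 8 members were called, all higher in the knockout mice, among cells in which 47.6% of all 17165 genes tested were called and 23.6% were called higher and 24.1% lower. Fewer cells of a type and less RNA per cell cannot be told apart in these sums, and the share of B-like cells moved with them.

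The other members did not pass the test over all cells. Igha, the constant region of IgA, stood at 412, 190, 485 and 120 CPM (edgeR log2 change -0.24, adjusted p = 0.858), and Jchain at 717, 417, 581 and 228 CPM (0.25, adjusted p = 0.758). In both genotypes the mouse numbered 1 had the higher level of these 2 genes. Ighg1 stood at 43.5, 32.9, 23.7 and 45.6 CPM and Ighg2c at 0.864, 20.6, 9.69 and 3.08 CPM, with overlapping groups. Ighg3 was higher in both knockout mice, at 15.2 and 1.07 against 0.165 and 0.104 CPM, but with 92.1% of the UMIs of knockout 1 in a single plasma-like cell, and it was not called (edgeR log2 change 5.64 ± 1.99, adjusted p = 0.128), except by DESeq2 (adjusted p = 0.000905), with a replicate block (0.0382) and, by edgeR, without knockout 1 (0.0283) or knockout 2 (0.0083). Several IgG totals rested on few cells: for Ighg1 in knockout 1 a single cell gave 63.0% of the UMIs, and for Ighg2c in control 1 and control 2 a single cell gave 85.8% and 92.5%. Others did not: the cell with most gave 21.8% of the Ighg1 UMIs of control 2 and 11.7% of the 60 Ighg3 UMIs of knockout 2, of which B-like cells held 85.0%.

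The cells that held the transcripts differed by gene. Plasma-like cells, under 1% of cells in every mouse, held 94.9% to 97.1% of the Igha UMIs and 96.4% to 99.2% of the Jchain UMIs. Ighd was held mostly by B-like cells, with 90.1%, 87.0%, 76.2% and 83.7% of its UMIs. Ighm was split: B-like cells held 47.1% and 49.0% of its UMIs in the knockout mice and 15.5% and 14.3% in the control mice, plasma-like cells 28.3%, 22.8%, 22.4% and 12.9%, and all other cells 24.7% and 28.1% against 62.1% and 72.7%. The 7 constant genes together gave 2.27% to 3.06% of all UMIs of plasma-like cells and Jchain another 2.41% to 3.35%, while in B-like cells the 7 genes gave 0.108% to 0.117%.

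**Figure D1:**
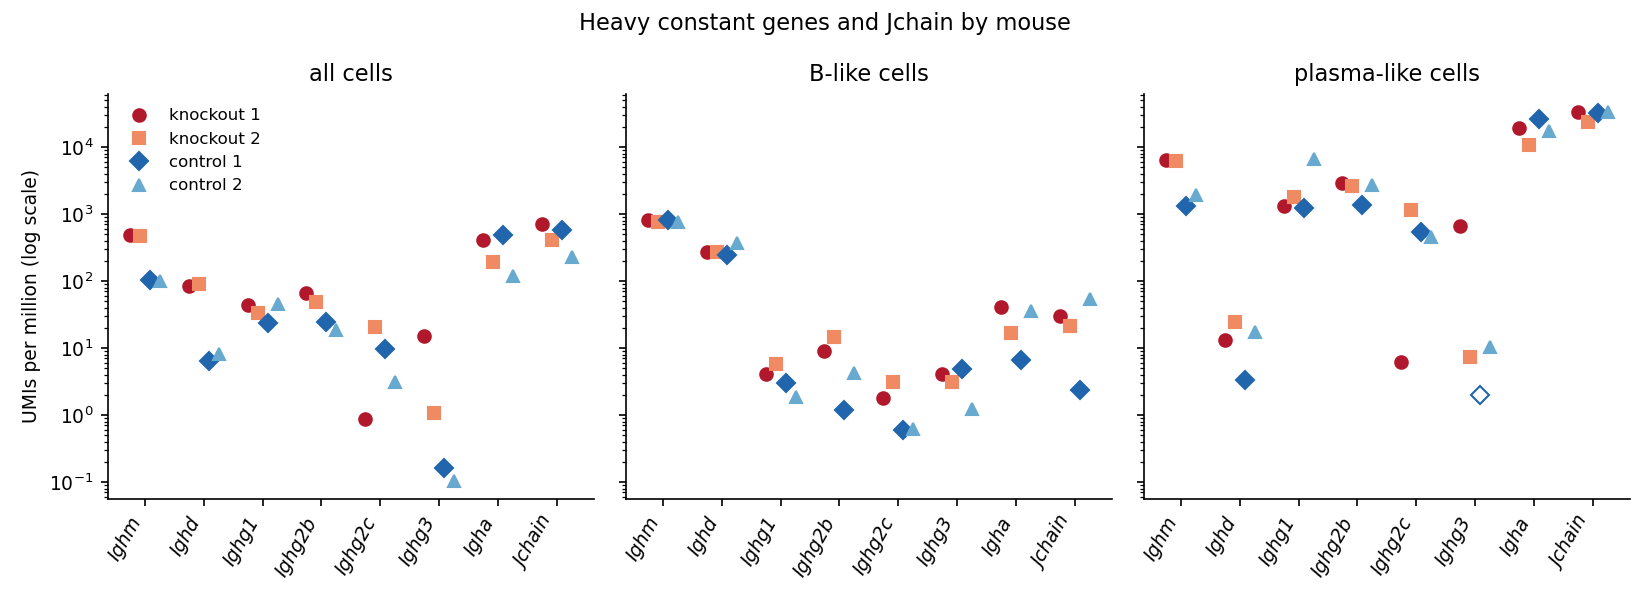
CPM (UMIs per 1000000 UMIs, log axis) of the 8 genes over all cells (left), in B-like cells (middle) and in plasma-like cells (right), with a symbol for each mouse and an open symbol at the floor of 3 UMIs where no UMI was seen. Ighm and Ighd separate the genotypes over all cells, overlap in B-like cells, and in plasma-like cells Ighm is higher in both knockout mice (6455 and 6260 CPM) than in both control mice (1316 and 1917 CPM).

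Within B-like cells the naive isotype genes did not separate the genotypes. Ighm stood at 805, 775, 818 and 763 CPM, with both knockout values between those of the control mice (edgeR log2 change 0.07 ± 0.16, adjusted p = 0.906). Ighd stood at 270, 270, 246 and 366 CPM (-0.11 ± 0.21, adjusted p = 0.884), with control 2 above the other 3 mice. Of the 8 members 0 were called in B-like cells, against 0.261% of all 11482 genes tested (0.0348% called higher and 0.226% lower), of which 1285 had an unadjusted p under 0.05; DESeq2 called 83 genes. The several-fold difference over all cells was not seen within B-like cells.

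The ratio of Ighd to Ighm compares the 2 alternative products of the same primary transcript. There were 33.5, 34.8, 30.1 and 47.9 Ighd UMIs per 100 Ighm UMIs in B-like cells, which gave a log2 ratio of -1.55 ± 0.04 in the knockout and -1.40 ± 0.48 in the control mice (two-sided exact permutation p = 1, where 2 mice against 2 cannot give less than 0.333). Without control 2 the difference of the log2 ratios turned from -0.15 to 0.18. In plasma-like cells the ratio was far lower, at 0.204, 0.386, 0.254 and 0.895 per 100.

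Cells with a UMI were counted after each cell was thinned to 1000 UMIs, since depth per cell differed between libraries. Ighm was then seen in 50.9%, 50.4%, 49.9% and 53.0% of B-like cells and Ighd in 24.2%, 23.9%, 24.2% and 31.0%. T-like cells, which do not make immunoglobulin protein, were taken as background, and the source of their UMIs was not tested. Of these cells 11%, 13.4%, 12.6% and 11.5% had an Ighm UMI and 0.735%, 0.921%, 0.164% and 0.501% an Ighd UMI. The Ighm background was not the same in every class: it was 14.2% and 16.7% against 5.69% and 6.34% in monocyte/macrophage-like cells and 14.8% and 18.0% against 5.95% and 5.32% in neutrophil-like cells, with both knockout mice above both control mice. Without thinning, Ighm was seen in 84.5%, 83.3%, 77.6% and 79.8% of B-like cells at median depths of 3062, 2870, 2207 and 2418.5 UMIs, and Ighd in 55.1%, 53.7%, 42.1% and 56.6%. Of the depths tried (1000 UMIs, 2000 UMIs and each cell's own), both knockout mice lay above both control mice for Ighm only at the cells' own depth.

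The switched genes were rare in B-like cells and the control mice held few such transcripts. Ighg2b stood at 9.12 and 14.7 against 1.20 and 4.30 CPM, with both knockout mice above both control mice, but the control values rest on 2 and 7 UMIs, and the change was not called (edgeR log2 change 2.20 ± 0.57, adjusted p = 0.239). Without knockout 1 the log2 change was 2.53. With a replicate block Ighg2b was called (2.22, edgeR adjusted p = 0.000164), although the labels do not say that same-numbered mice are paired. Ighg1 stood at 4.07, 5.82, 3.0 and 1.84 CPM (1.10 ± 0.52, edgeR adjusted p = 0.484) and Ighg2c at 1.77, 3.09, 0.599 and 0.615 CPM (2.06 ± 0.90, edgeR adjusted p = 0.447). For Ighg1 and Ighg2c, too, each knockout mouse lay above each control mouse, on 1 to 5 control UMIs. Ighg3 stood at 4.07, 3.09, 4.80 and 1.23 CPM, Igha at 41.0, 16.5, 6.59 and 36.3 CPM and Jchain at 29.8, 21.3, 2.40 and 54.1 CPM, each with overlapping groups. After thinning, Ighg2b was seen in 0.481% and 0.51% of knockout B-like cells and in 0 of 682 and 0 of 606 control cells. The 95% exact intervals of these control shares reached up to 0.539% and 0.607%, above both knockout shares. Without thinning it was seen in 1.21% and 1.48% against 0.290% and 0.485%, or 53 and 73 against 2 and 3 cells, with fewer UMIs per cell in the control mice.

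Each cell was then given the isotype with most UMIs among IgM/IgD (Ighm plus Ighd), IgG1, IgG2b, IgG2c, IgG3 and IgA, where that isotype had at least 2 UMIs and more than any other. By this rule 23.3%, 25.4%, 37.9% and 26.9% of B-like cells stayed undetermined. Nearly all others were IgM/IgD: IgG or IgA led in 39 of 3372, 63 of 3680, 1 of 428 and 3 of 452 determined cells, or 1.16% (95% exact Clopper-Pearson interval 0.824 to 1.58), 1.71% (1.32 to 2.19), 0.234% (0.00592 to 1.29) and 0.664% (0.137 to 1.93). These intervals cover counting error only, and those of the control mice reach into the range of the knockout mice. The means were 1.43% ± 0.39 in the knockout and 0.449% ± 0.304 in the control mice (n = 2 each, two-sided exact permutation p = 0.333, the smallest this design allows).

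The same rule was applied to classes outside the B lineage, taken as background. In T-like cells 6 of 389, 4 of 467, 2 of 173 and 0 of 169 determined cells were led by IgG or IgA, or 1.54%, 0.857%, 1.16% and 0%, a range that overlaps the B-like shares. Set against all cells of the class, the share was 0.888%, 1.28%, 0.145% and 0.485% in B-like and 0.274%, 0.193%, 0.163% and 0% in T-like cells. In NK-like cells it was 0 in all 4 mice, in monocyte/macrophage-like cells 0.477%, 0.0863%, 0.173% and 0.0261% and in neutrophil-like cells 0.296%, 0.307%, 0.109% and 0%. Of determined neutrophil-like cells 2 of 111, 1 of 47, 2 of 40 and 0 of 43 were led by IgG or IgA, shares of 1.80%, 2.13%, 5% and 0% that reach above those of B-like cells. Over all cells of the class the B-like share was above the T-like share of the same mouse in both knockout mice and control 2, and not in control 1. IgG2b led in 12 and 24 B-like cells of the knockout mice, IgG1 in 10 and 15, IgA in 9 and 15, IgG2c in 4 and 6 and IgG3 in 4 and 3. In the control mice only IgG3 (1 and 1 cells) and IgA (0 and 2 cells) were found. Among unswitched cells 65.7%, 66.7%, 56.0% and 70.8% also held an Ighd UMI, and 2.94%, 2.93%, 2.81% and 2.00% held a UMI of a switched gene.

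B-like cells were divided into 12 sub-clusters, again without immunoglobulin genes, and the members followed that division. A B1-like sub-cluster, with 7 of 8 fixed markers of B1 cells (self-renewing B cells known for natural IgM) and 375 cells, had Ighm above the level of all B-like cells in 3 of the 4 mice (1274, 1527, 1540 and, in control 2, 731 CPM) and low Ighd (111, 103, 116 and 82.7 CPM). Its ratio of 8.69, 6.77, 7.52 and 11.3 Ighd UMIs per 100 Ighm UMIs was below that of B-like cells as a whole in every mouse. A sub-cluster of 973 cells led by Gm57325 and Gm57271, with raised Icosl, which encodes a costimulatory ligand, had the highest Ighd, at 475, 403, 469 and 508 CPM. These are descriptions of clusters and were not tested.

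Switched cells gathered in 1 small sub-cluster. It held 183 B-like cells (41, 129, 9 and 4) and had Fscn1 and Parm1 among its leading genes; it matched 5 B1 and 4 germinal centre markers and stayed unnamed. Of all 106 switched B-like cells 69, or 65.1%, lay in it, as 24 of 34, 43 of 102, 0 of 6 and 2 of 4 of its determined cells. Igha stood at 2098, 206, 20.8 and 1843 CPM there and Jchain at 1710, 208, 0 and 3159 CPM, above the level of all B-like cells in 3 of the 4 mice (in control 1 only for Igha). Its 13 control cells are too few to compare the genotypes within it.

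Control 2 differed in makeup from the other 3 mice. A sub-cluster led by Cfp and Ccnd2, with Lyz2, a gene of myeloid cells, also among its 10 leading genes, held 384 of its 618 B-like cells (62.1%), against 2.18%, 1.72% and 10.4% in knockout 1, knockout 2 and control 1. In that sub-cluster control 2 had 368 CPM of Ighd, where the other mice had 180, 182 and 185, and 755 CPM of Ighm, where they had 1234, 993 and 1139. The high Ighd level and Ighd to Ighm ratio of control 2 in B-like cells moved with this sub-cluster, and its part in them was not tested.

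**Figure D2:**
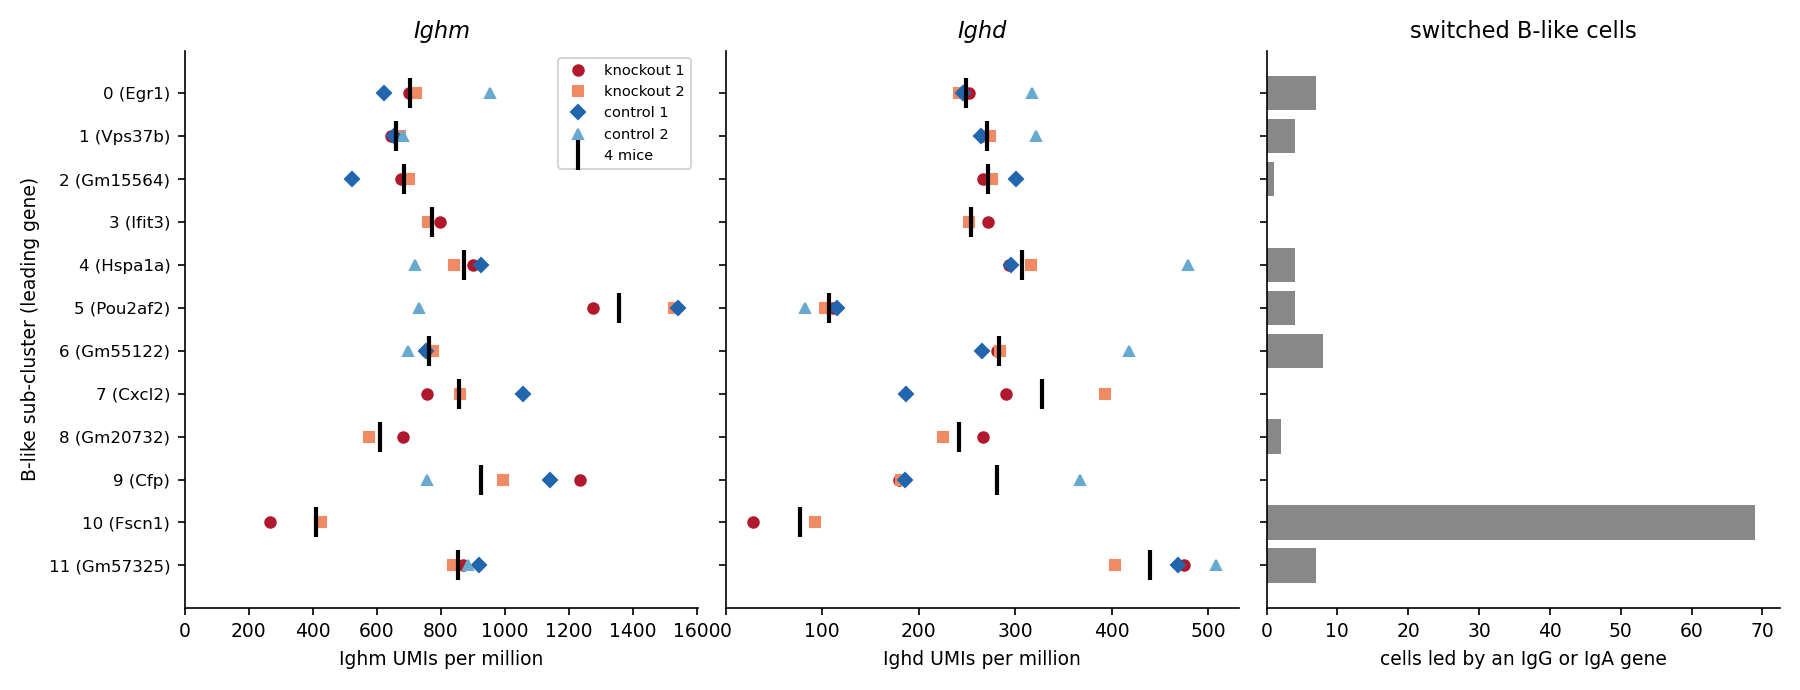
Ighm (left) and Ighd (middle) in CPM in the 12 B-like sub-clusters, labelled by the leading gene of each, with a symbol for each mouse that has at least 10 cells and a black tick for the 4 mice together, and (right) the number of switched B-like cells. Sub-cluster 5, the B1-like one, combines low Ighd with high Ighm in each mouse but control 2. Control 2 lies apart from the other mice in sub-cluster 9, and sub-cluster 10 holds 69 of the 106 switched cells.

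Of the lists of genes known to direct or carry out switching, receptor signalling and secretion, a single gene was called in B-like cells. In B-like cells 0.0348% of all genes were called higher. Tgfbr1, a chain of the TGF-beta receptor whose ligand is known to direct switching to IgA, stood at 67 and 53.9 against 21.6 and 17.8 CPM and rose by 1.68 ± 0.21 (edgeR adjusted p = 0.0321), the only call among 27 genes of switch-directing signals; it was called in each of the 4 fits that leave out 1 mouse. The rise was not limited to B-like cells: Tgfbr1 stood at 58.9 and 50.2 against 24.0 and 25.9 CPM in T-like cells (1.20 ± 0.15, edgeR adjusted p = 0.0261) and rose in monocyte/macrophage-like cells by 1.41 ± 0.14 (edgeR adjusted p = 0.00241). Of 28 genes of the switching machinery 0 were called, with a median log2 change of -0.10 against -0.01 over all genes tested. None of 22 B cell receptor genes, 24 genes of antibody secretion, 16 genes of transcription at the heavy chain locus and 5 light chain and surrogate light chain genes was called. Among light chains Igkc stood at 1104, 1110, 1104 and 1006 CPM and Iglc2 at 1095, 1041, 1464 and 2039 CPM.

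In plasma-like cells Ighm was higher in both knockout mice, a difference that did not pass the test. Ighm stood at 6455 and 6260 against 1316 and 1917 CPM, with both knockout mice above both control mice (edgeR log2 change 1.54 ± 0.34, adjusted p = 0.157, unadjusted p = 0.0146). The plasma-like cell with most Ighm gave 11.4%, 26.5%, 39.8% and 29.8% of the Ighm UMIs of this class. The call depends on the test and on the mice: DESeq2 gave an adjusted p of 0.00024, and edgeR gave 0.0327 without control 1, 7.79e-07 without control 2 and 1.63e-21 when every gene with a UMI was tested. Of the 8 members 0 were called, against 1.42% of 6636 genes tested, of which 1253 had an unadjusted p under 0.05. Whether the genotype effect differed between plasma-like and B-like cells was tested with a genotype by class term, and for Ighm the difference was 1.5 ± 0.35 (edgeR adjusted p = 0.274); of the 8 members 0 were called by that term, against 0.241% of all genes.

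The switched genes and Jchain overlapped between genotypes or rested on few cells. Igha stood at 18997, 10843, 26104 and 17193 CPM (edgeR log2 change -0.89 ± 0.51, adjusted p = 0.528) and Jchain at 32945, 24109, 32552 and 33512 CPM (-0.61 ± 0.35, adjusted p = 0.531). Ighg1 stood at 1325, 1830, 1243 and 6703 CPM and Ighg2b at 2962, 2620, 1364 and 2738 CPM. Ighg2c was at 6.13, 1151, 547 and 455 CPM and Ighg3 at 669, 7.35, 0 and 10.3 CPM, where 99.7% of the Ighg3 UMIs of knockout 1 came from a single cell. Ighd was low in all, at 13.1, 24.1, 3.34 and 17.2 CPM. The TMM factors of the 4 sums ran from 0.79 in control 2 to 1.23 in knockout 2, so the log2 changes differ from the ratios of CPM.

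By isotype, IgM/IgD led in 23 of 49, 18 of 53, 5 of 66 and 10 of 37 plasma-like cells, or 46.9% (95% exact interval 32.5 to 61.7) and 34.0% in the knockout and 7.58% and 27.0% in the control mice. The means of 40.5% ± 9.2 and 17.3% ± 13.8 had the smallest p the design allows (n = 2 each, two-sided exact permutation p = 0.333). IgA led in 21, 19, 54 and 15 cells, or 42.9%, 35.8%, 81.8% and 40.5%, with control 1 far above the other 3 mice (two-sided exact permutation p = 0.667). IgG led in 5, 16, 7 and 12 cells, or 10.2%, 30.2%, 10.6% and 32.4%, so that the mice numbered 2 were higher in both genotypes (two-sided exact permutation p = 0.667).

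Some plasma-like cells held little Jchain, and B markers moved with genotype in this class. Jchain was under 10 UMIs in 9, 8, 1 and 7 of the cells led by IgM/IgD, in 0, 8, 0 and 0 of those led by IgG and in 1, 1, 1 and 0 of those led by IgA. The summed B markers of plasma-like cells were higher in the knockout mice, at 2276 and 3251 against 840 and 1445 CPM, with plasma markers lower, at 7083 and 7609 against 11945 and 11005 CPM. The 12 monocyte/macrophage markers summed to 1196 and 1003 against 3392 and 1948 CPM and the 8 neutrophil markers to 27.2 and 4.2 against 284 and 256 CPM, both lower in the knockout mice. The 9 T markers summed to 84.1 and 150 against 16.02 and 42.9 CPM and the 8 NK markers to 60.5 and 77.7 against 19.4 and 12.02 CPM, both higher in them. Among markers at 0 in at least 1 mouse were Adgre1, S100a9 and Ncr1, and the part of these cells in the changes of plasma-like cells was not tested. Cells with more plasma marker than B marker UMIs were therefore also taken alone, a choice made after these values were seen: 39 of 50, 33 of 54, 64 of 66 and 30 of 37 cells were kept. Of the cells left out, 10 of 11, 17 of 21, 2 of 2 and 7 of 7 had under 10 Jchain UMIs.

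The separation in IgM was as large among the cells kept. IgM/IgD led in 35.9% and 27.3% against 6.25% and 10.0%, or 14 and 9 against 4 and 3 cells. The means were 31.6% ± 6.1 and 8.13% ± 2.65 (n = 2 each, two-sided exact permutation p = 0.333). Ighm stood at 7714 and 7796 against 1325 and 1965 CPM (edgeR log2 change 2.00 ± 0.36, adjusted p = 0.143), and 0 of the 6 members tested were called against 0.694% of 5334 genes (0.45% lower). IgA led in 51.3%, 57.6%, 82.8% and 50.0% of these cells, and IgG in 5 of 39, 5 of 33, 7 of 64 and 12 of 30. Igha was at 23021, 14011, 26398 and 18360 CPM and Jchain at 39963, 30764, 33160 and 35788 CPM, with log2 changes of -0.41 and -0.15 by edgeR.

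Jchain is needed for polymers of IgM and IgA, and IgG does not polymerise with it, but IgG cells carried it too. Among the kept cells it stood at 199, 120, 159 and 135 UMIs per 100 heavy chain UMIs in cells led by IgM/IgD and at 90.1, 123, 108 and 146 in cells led by IgA. In cells led by IgG it stood at 63.4, 73.6, 76.3 and 61.1, the lowest ratio of the isotypes in each of the 4 mice. The median Jchain UMIs per cell did not keep this order. They were 732, 564, 498 and 304 in IgG cells and 598, 374, 703 and 807 in IgA cells. By that measure IgG cells were above IgA cells in both knockout mice and below them in both control mice. Every one of the 29 kept IgG cells held Jchain, with 124 to 1163 UMIs. Before that choice of cells 37 of 40 IgG cells held it, and in knockout 2 the median was 10.5 UMIs over 16 cells. Over the 4 mice the ratios were 162, 110 and 67.8 from 30, 107 and 29 cells; cells are not replicates, and no test was made.

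**Figure D3:**
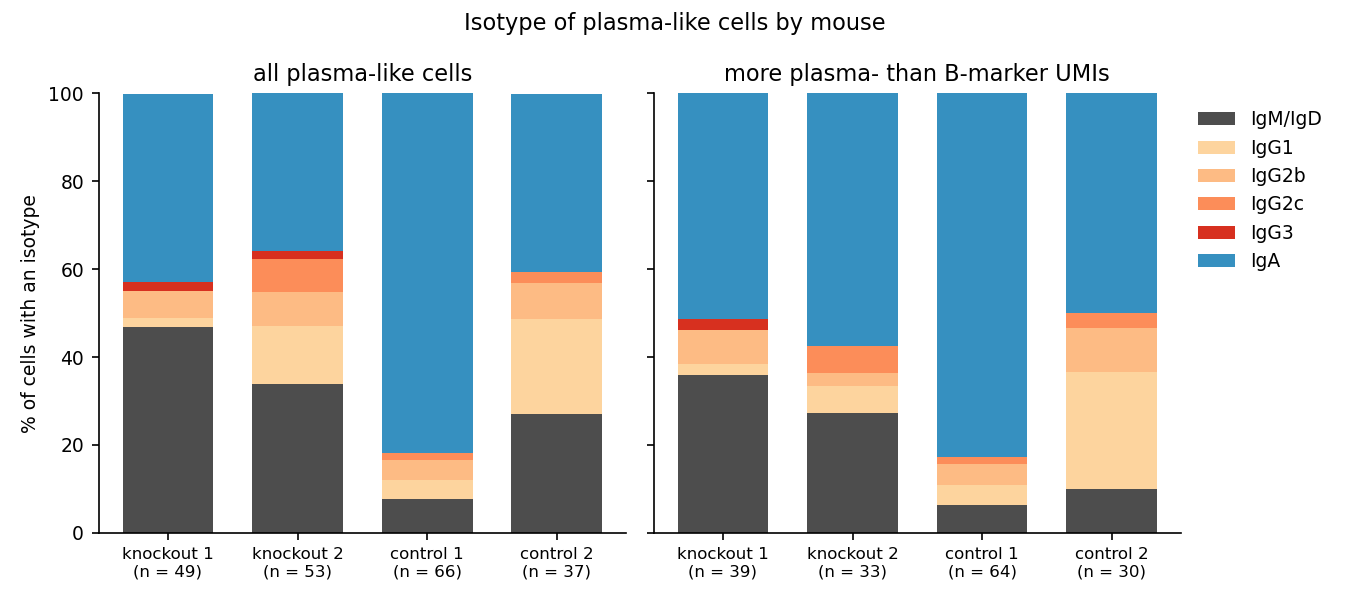
Stacked bars give the percent of plasma-like cells led by each isotype in each mouse, for all plasma-like cells (left) and for those with more plasma marker than B marker UMIs (right), with the number of cells that have an isotype under each bar. IgM/IgD, in dark grey, is larger in both knockout mice (46.9% and 34.0%, and 35.9% and 27.3%) than in both control mice (7.58% and 27.0%, and 6.25% and 10.0%).

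Some genes of the secretory apparatus were called lower in the summed plasma-like cells of the knockout mice. Among them Xbp1, Mzb1, Edem1, Sec11c and Fkbp11 are also plasma markers from which the class was named. Cells without more plasma than B marker UMIs made up 11 of 50, 21 of 54, 2 of 66 and 7 of 37 cells of the class. Their part in these falls was not tested. Of 25 genes of antibody secretion 7 fell and 0 rose, with a median log2 change of -0.91 against 0.01 over all genes, where 1.16% of all genes were called lower and 0.256% higher. Mzb1, a chaperone of IgM assembly, stood at 2371 and 2986 against 4932 and 4473 CPM (edgeR log2 change -1.23 ± 0.11, adjusted p = 0.00486), and Fkbp11, an endoplasmic reticulum protein, at 173 and 145 against 387 and 385 CPM (-1.68 ± 0.23, adjusted p = 0.0199). Hsp90b1, the chaperone GRP94, changed by -0.99 ± 0.11 (edgeR adjusted p = 0.0142) and Manf by -0.96 ± 0.16 (edgeR adjusted p = 0.0385). Among the cells with more plasma than B markers 0 of 25 were called, with a median of -0.51, and Mzb1 was at -0.83 (edgeR adjusted p = 0.107). That choice of cells used genes of this list, Mzb1 and Fkbp11 among them, so these values only describe the cells kept and are no test of the list. Without knockout 1, knockout 2, control 1 or control 2, the numbers of falling genes were 0, 0, 6 and 12.

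Of the other lists in plasma-like cells, 1 of 5 light chain and surrogate genes fell. This was Iglc1, a lambda light chain constant gene, at 1570 and 1728 against 4850 and 2491 CPM (edgeR log2 change -1.52 ± 0.22, adjusted p = 0.044; adjusted p = 0.0739 among the kept cells). Of 16 genes of the switching machinery, 22 of switch-directing signals, 20 of the B cell receptor and 14 of transcription at the heavy chain locus 0 were called.

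**Figure D4:**
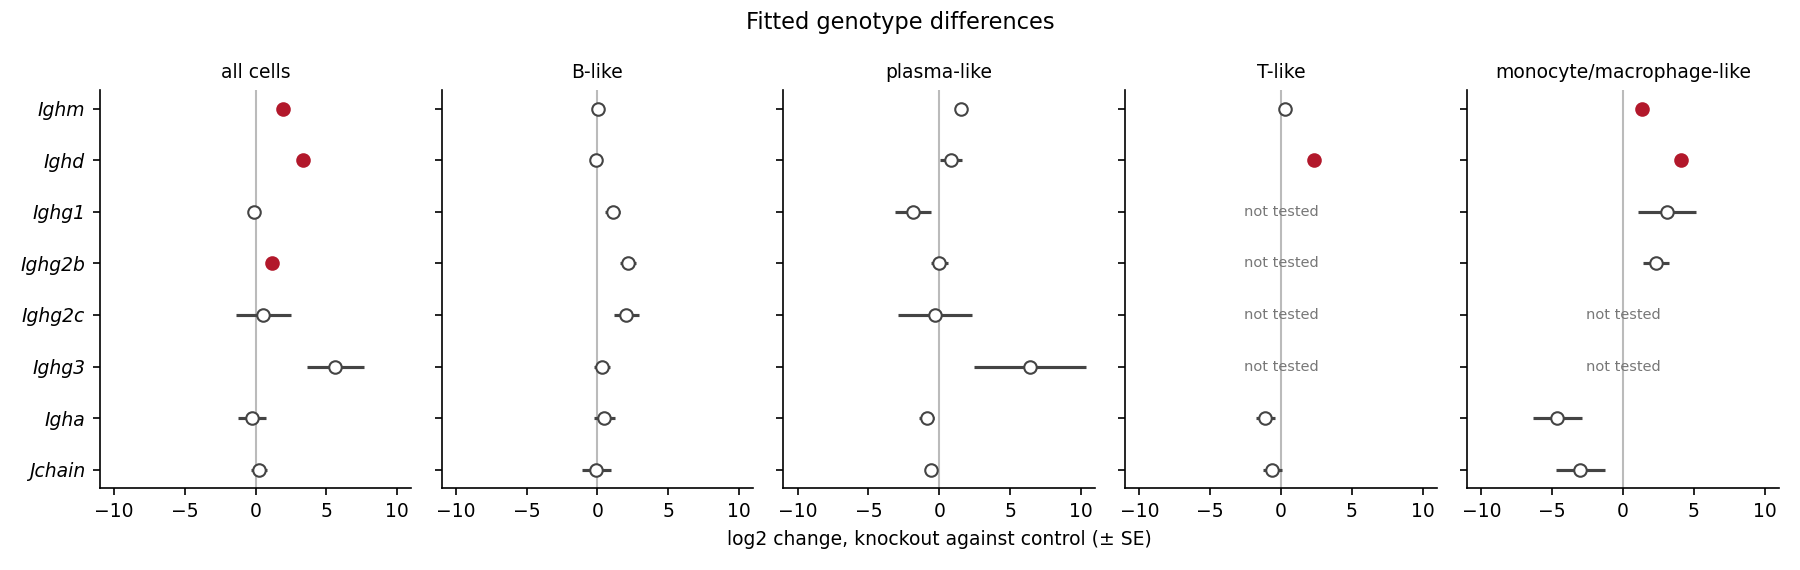
Log2 changes of knockout over control for the 8 genes in each set of cells fitted by edgeR, with bars of ± 1 standard error and filled red points where the adjusted p was under 0.05; genes that did not pass the low-count filter are marked as not tested. Ighm, Ighd and Ighg2b are called over all cells, none in B-like or plasma-like cells, Ighd in T-like cells, and Ighm and Ighd in monocyte/macrophage-like cells.

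The heavy chain genes were also read in classes outside the B lineage, and there some of the genes differed between genotypes. In T-like cells Ighm stood at 139, 175, 141 and 136 CPM (edgeR log2 change 0.25 ± 0.16, adjusted p = 0.456), while Ighd was higher in both knockout mice, at 10.4 and 13.2 against 2.40 and 2.63 CPM (2.30 ± 0.28, edgeR adjusted p = 0.0265). Of 4 members tested there 1 was called, against 1.09% of 12208 genes (0.541% higher and 0.549% lower). At the B-like ratio of Ighd to Ighm, T-like Ighd would go with 22.2%, 21.8%, 5.65% and 4.02% of T-like Ighm UMIs. The source of the remaining Ighm UMIs was not tested.

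The makeup of the T-like class differed between genotypes, and Ighm moved with it. A cluster led by Foxp3, which encodes the transcription factor of regulatory T cells, held 2.97%, 6.45%, 17.02% and 19.8% of T-like cells and 14.5%, 25.5%, 47.1% and 59.8% of their Ighm UMIs. In the other 3 T-like clusters Ighm stood at 125 and 148 against 92.1 and 69.2 CPM, with both knockout mice above both control mice (0.78 ± 0.21, edgeR adjusted p = 0.171, unadjusted p = 0.00744). Ighd stood there at 9.14 and 12.3 against 2.27 and 2.88 CPM and was no longer called (2.08 ± 0.32, edgeR adjusted p = 0.0708, unadjusted p = 0.000382). Of 3 members tested without that cluster 0 were called by edgeR, against 0.272% of 11757 genes, and 2 had an unadjusted p under 0.05. These cells were left out after their values were seen.

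In monocyte/macrophage-like cells Ighm stood at 167 and 187 against 58.8 and 66.4 CPM (1.38 ± 0.13, edgeR adjusted p = 0.00215) and Ighd at 22.1 and 24.9 against 1.51 and 0.978 CPM (4.12 ± 0.23, edgeR adjusted p = 0.000568). Of 6 members tested there 2 were called, against 18.3% of 14217 genes (8.86% higher and 9.43% lower).

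B cell markers moved with these values. The 12 B markers, none at 0 in any mouse, summed to 247 and 405 against 104 and 76.9 CPM in T-like cells and to 595 and 621 against 59.5 and 30.4 CPM in monocyte/macrophage-like cells, and their part in the result was not tested. A cluster of 249 monocyte/macrophage-like cells (93, 128, 16 and 12), led by Ms4a7, Cbr2 and Gdf3, also held B markers, at 3169 to 4939 CPM, and had 403 to 547 CPM of Ighm and 104 to 263 CPM of Ighd. In the other 5 monocyte/macrophage-like clusters Ighm stood at 130 and 142 against 57.9 and 66.0 CPM and Ighd at 6.75 and 6.18 against 1.27 and 0.763 CPM. Both stayed called without that cluster, at log2 changes of 1.05 for Ighm and 2.58 for Ighd (edgeR adjusted p = 0.00448 for each). The other 5 clusters still held B markers, at 189 and 177 against 51.3 and 26.4 CPM, and their part in these changes was not tested.

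The ratio of the 2 genes was lower than in B-like cells in every other class shown. Against 30.1 to 47.9 Ighd UMIs per 100 Ighm UMIs in B-like cells, T-like cells had 7.46, 7.59, 1.70 and 1.93 and monocyte/macrophage-like cells 13.3, 13.3, 2.56 and 1.47. NK-like cells had 4.69, 5.74, 2.29 and 2.88 and neutrophil-like cells 5.46, 10.8, 3.41 and 2.61. In the monocyte/macrophage-like cluster with B markers it was 29.6, 30.6, 23.1 and 48.1, near that of B-like cells, and in the other 5 clusters 5.21, 4.36, 2.19 and 1.16. In the T-like clusters other than that led by Foxp3 it was 7.31, 8.32, 2.47 and 4.15. In both of these sets both knockout mice lay above both control mice, and the difference was not tested.

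**Figure D5:**
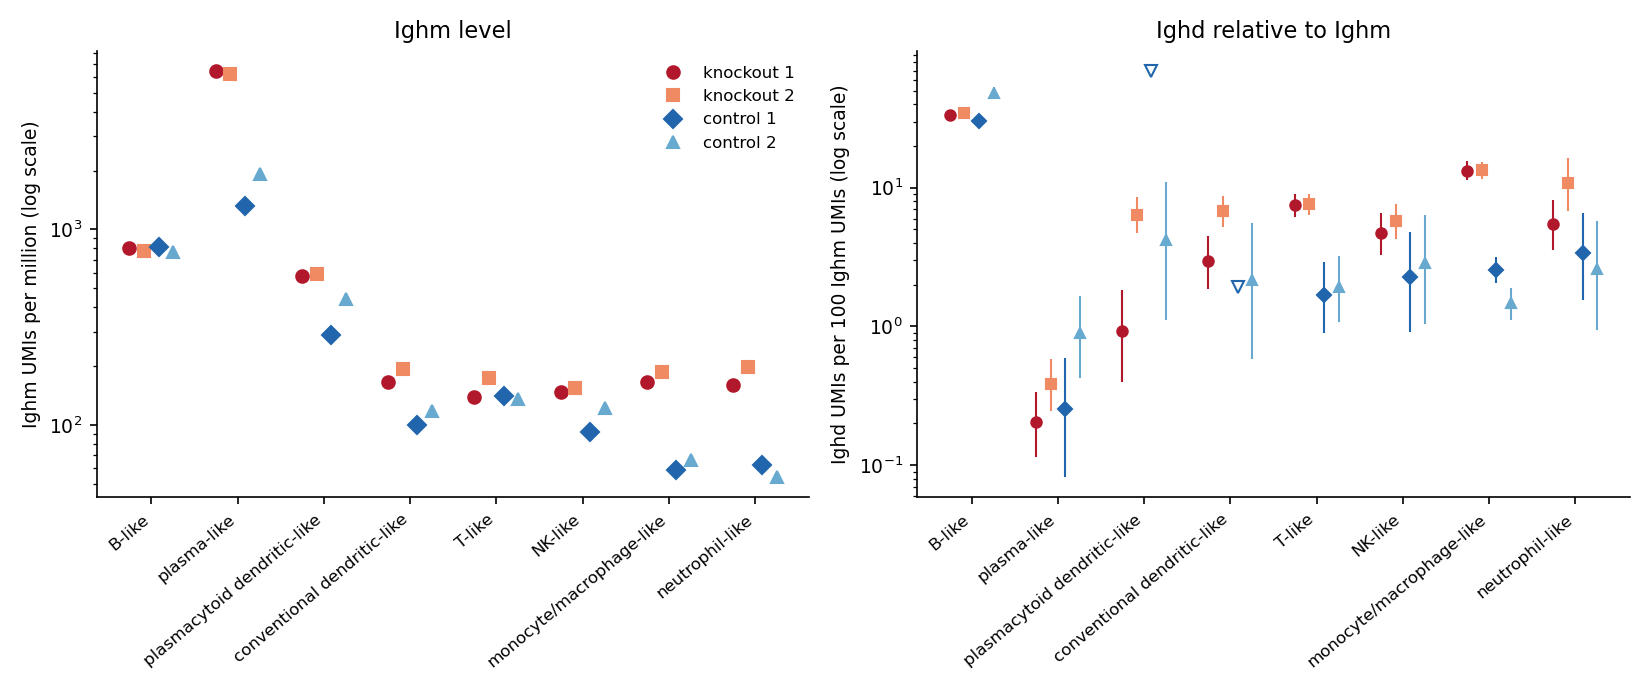
Ighm in CPM (left, log axis) and Ighd UMIs per 100 Ighm UMIs (right, log axis) in each class and mouse; bars on the right are 95% exact intervals of counting error, and an open triangle marks the upper limit where no Ighd UMI was seen. B-like cells lie at 30.1 to 47.9 on the right and plasma-like cells under 1, and T-like and monocyte/macrophage-like cells of the knockout mice lie above those of the control mice.

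The 2 background classes were compared with a genotype by class term, by which 3 of 5 members were called (Ighm, Ighd and Igha), against 5.33% of 13755 genes; the Ighd difference was not called without the cluster with B markers. Without the T-like cluster led by Foxp3 only that of Ighd was called, and without both clusters 0 of 5 were called by edgeR, with 1 (Jchain) at an unadjusted p under 0.05. Igha was read outside plasma-like cells mainly in control 1. In monocyte/macrophage-like cells it stood at 0.729, 0.811, 32.1 and 3.35 CPM, from 6, 8, 1980 and 202 UMIs, and was not called (edgeR log2 change -4.62 ± 1.73, adjusted p = 0.163), except by DESeq2 (adjusted p = 0.00795) and, by edgeR, without control 1 (-2.23, adjusted p = 0.00176) or control 2 (-5.46, adjusted p = 2.09e-09). Jchain stood at 1.09, 0.405, 10.1 and 0.845 CPM there, and control 1 was also the mouse with most plasma-like cells led by IgA.

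The genes most alike the members over 31 sums of a class in a mouse, by Pearson correlation of log2(CPM + 1) among 5741 genes, were genes of the same cells. For Ighd these were Fcmr (the IgM Fc receptor, r = 0.96), Fcer2a (the low-affinity IgE receptor CD23, 0.95) and Ebf1 (a B lineage transcription factor, 0.95). For Jchain they were Derl3 and Fkbp11 (0.96 each) and Prg2 (0.93), and for Igha Fkbp11 (0.95), Derl3 (0.94) and Prg2 (0.92). For Ighm, which both classes hold, they were Mzb1 (0.95), Gm30211 (0.94) and Syvn1 (0.90). The sums of a mouse share a library, and these correlations follow the division into classes.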

How the data were processed

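UMI counts per gene and barcode of 4 gene expression libraries were used as deposited. Cell Ranger 8.0.1, Seurat 5.0.1, R 4.4.1 and the build GRCm39 are named, per the submitters' processing notes; the annotation release was not given in the sources used here, and T cell receptor libraries were not analysed here. The matrices hold the whole-number counts that the authors deposited, with no scaling.

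The genes and gene lists were chosen with earlier results of these data known. All 8 genes are reported whatever their result. Beside them the text names the called list genes with the lowest p, up to 4 for each list in B-like and plasma-like cells (a limit to 2 classes set after the values were seen), and, for Ighm, Ighd, Igha and Jchain, the 3 most correlated genes with a mean of at least 20 CPM. Sub-cluster leaders, other list genes and the clusters with B markers and led by Foxp3 were named after their values were seen. Some genes are not reported here.

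A barcode needed 200 detected genes and a mitochondrial share no higher than 10%, which 10741, 11594, 12281 and 13598 met, and 309, 471, 447 and 515 doublets called by Scrublet at an expected 0.8% per 1000 cells were removed. In scanpy 1.11.5, each cell was scaled to 10000 UMIs and logged. With 2000 variable genes, none of them an immunoglobulin gene or Jchain, 30 principal components and 20 neighbours, Leiden clusters at resolution 1 took a name where 3 or more of its markers were detected in 10% of the cells and 2-fold higher there. The share of its markers met had also to lead that of every other class by at least 0.15. No other class could have more markers among the 10 leading genes, and only leukocyte names were given. B-like cells were clustered again (20 components, resolution 0.8). Sums of counts for each class and mouse, where no mouse had fewer than 30 cells, were tested, two-sided, by edgeR 4.0.16 quasi-likelihood (robust fit, filterByExpr, TMM, Benjamini-Hochberg, threshold 0.05) with genotype as the only term. Genotype by class terms had mouse as a block. Shares and ratios were tested by exact permutation over mice. DESeq2 1.42.0 was an alternative.

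On simulated data for each set of cells, in which 200 genes were changed, 46% of 2-fold and 99% of 4-fold changes were recovered over all cells, 57% and 97% in B-like, 15% and 89% in plasma-like, 62% and 98% in T-like and 68% and 98% in monocyte/macrophage-like cells. False calls made up 35 of 180 calls over all cells, 17 of 171 in B-like and 8 of 112 in plasma-like cells. They made up 18 of 178 in T-like and 19 of 185 in monocyte/macrophage-like cells. In each set this was a larger share than the adjusted p threshold aims for. Exons and sequences came from the GRCm39 genome with GENCODE annotation, matched by gene ID for all 8 genes. Among same-numbered mice, deviations from the group means correlated at -0.080 to 0.085. With 2 mice per genotype this cannot show whether same-numbered mice are paired, and the labels name no pairing.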

Additional observations from a re-analysis of the deposited data

Results flagged for a closer look

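The genotype difference of 3 genes was not the same in monocyte/macrophage-like as in T-like cells, 2 classes outside the B lineage. In a genotype by class term with mouse as a block, the log2 change was larger in monocyte/macrophage-like cells by 1.15 ± 0.16 for Ighm (edgeR adjusted p = 0.0036) and by 1.85 ± 0.36 for Ighd (edgeR adjusted p = 0.0191), and for Igha it differed by -3.25 ± 0.52 (edgeR adjusted p = 0.00848). These are 3 of the 5 members tested, among 13755 genes of which 5.33% were called, and the term was chosen after both classes had been seen. Without the cluster of monocyte/macrophage-like cells that also held B markers, the differences were 0.81 for Ighm (adjusted p = 0.0287), 0.32 for Ighd (adjusted p = 0.771) and -4.22 for Igha (adjusted p = 0.00583), all by edgeR, so that of Ighd was not called. Without the T-like cluster led by Foxp3 they were 0.56 for Ighm (adjusted p = 0.253), 2.04 for Ighd (adjusted p = 0.0251) and -3.93 for Igha (adjusted p = 0.469), and without both clusters 0.23, 0.51 and -4.95 (adjusted p = 0.712, 0.672 and 0.377), all by edgeR. Without both clusters the differences of Ighm and Ighd were thus smaller, while that of Igha was larger with a wider standard error (2.05 against 0.52). Igha in monocyte/macrophage-like cells was highest in control 1, at 32.1 CPM against 3.35 in control 2 and 0.729 and 0.811 in the knockout mice, and the term was not fitted without that mouse.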

How the results depend on the processing

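Over the alternatives run, 400 of 458 log2 changes of members kept their direction and side of the threshold, 22 became called and 35 turned sign and 1 lost its call, Ighd in T-like cells without the cluster led by Foxp3; of 96 values of shares and of the ratio, 75 moved by less than the spread between mice. Ighm, Ighd and Ighg2b stayed called over all cells in 11 of 11 alternatives, Ighd in T-like cells in 14 of 15, and Ighm and Ighd in monocyte/macrophage-like cells in 15 of 15. The cause of the changes below was not tested.

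Genes called in B-like cells numbered 30, and 83 with DESeq2, 55 with every gene that has a UMI, 364 with a replicate block and 15 with doublets kept. In plasma-like cells 94 were called, and 689 with every gene that has a UMI, 36 with a replicate block, 44 with doublets kept and 37 among cells with more plasma than B markers. In T-like cells 133 were called, and 367 with DESeq2, 692 with every gene that has a UMI, 297 with a replicate block, 467 with doublets kept, 291 with the stricter cell filter (500 genes, 5% mitochondrial) 205 with clusters made with immunoglobulin genes and 32 without the cluster led by Foxp3. The term for monocyte/macrophage-like against T-like cells called 733 genes, and 397 without that cluster and the cluster with B markers. Leaving out 1 mouse gave 3694 (knockout 1) to 8818 (control 1) over all cells against 8178, 53 (knockout 2) to 951 (control 1) in B-like, 41 (knockout 2) to 359 (control 2) in plasma-like, 69 (knockout 1) to 867 (control 1) in T-like and 522 (knockout 1) to 3547 (control 1) in monocyte/macrophage-like cells against 2600. Those fits leave a group with a lone mouse, assumed to vary like the other genotype.

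Members that turned sign were, with 2 exceptions in B-like Jchain (below), not called. With a replicate block Ighg2c over all cells was at -0.42, Jchain in B-like cells at 0.21 and Ighg2b in plasma-like cells at 0.12. In B-like cells Jchain was at 1.05 with doublets kept, 0.19 at resolution 2 and 3.93 with clusters made with immunoglobulin genes (edgeR adjusted p = 0.00613), and Igha at -0.55 with the stricter cell filter and -1.73 with those clusters. In plasma-like cells Ighg2b was at 0.025 with every gene that has a UMI, 0.41 with doublets kept, 0.0030 with those clusters and 0.42 among cells with more plasma than B markers, and Ighg2c was at 0.16 with doublets kept. Leaving out each mouse moved Ighg1 from -0.53 to 0.46, Ighg2c from -3.16 to 1.55, Igha from -0.92 to 1.05 and Jchain from -0.27 to 1.04 over all cells. In B-like cells it moved Ighm from -0.0029 to 0.16, Ighd from -0.33 to 0.18, Ighg3 from -0.38 to 1.63, Igha from -0.25 to 2.15 and Jchain from -0.98 to 3.45 (without control 2, edgeR adjusted p = 0.0314). In plasma-like cells it moved Ighd from -0.50 to 2.15, Ighg1 from -2.69 to 0.063, Ighg2b from -0.55 to 0.78 and Ighg2c from -6.63 to 0.67, in T-like cells Igha from -1.83 to 0.23 and in monocyte/macrophage-like cells Ighg1 from -8.90 to 5.21.

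Where a leading isotype had to hold at least 80% of the UMIs, the switched share of B-like cells differed by 0.587 percentage points between genotypes and that of IgM/IgD by -0.587. Leaving out each mouse moved the difference of the IgG share of plasma-like cells from -12.2 to 9.59 points and that of the log2 ratio of Ighd to Ighm from -0.49 to 0.18. The difference in the share of B-like cells with Ighm was 0.648 points at 2000 UMIs, 5.19 without thinning and -2.31 to 0.803 without each mouse. That for Ighg1 was -0.177 at 2000 UMIs, and without thinning those for Ighd, Igha and Jchain were 5.02, 0.176 and 0.052. Without each mouse Ighg2c moved from -0.049 to 0.098 and Ighg3 from -0.036 to 0.092.

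The replicate block, with numbers that the labels do not call pairs, gave 7261 calls over all cells and, for monocyte/macrophage-like cells, 2150. Under it Ighg2b in B-like cells was called (2.22, edgeR adjusted p = 0.000164). With 37 to 66 plasma-like cells per mouse and 428 and 452 determined B-like cells in the control mice, small changes of isotype could not be seen.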

Other observations

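Plasmacytoid dendritic-like cells held more Ighm than any class other than B-like and plasma-like cells in each of the 4 mice, at 575, 590, 290 and 440 CPM from 199, 187, 4 and 49 cells in knockout 1, knockout 2, control 1 and control 2. Ighd was at 0.921, 6.38, 0 and 4.17 UMIs per 100 Ighm UMIs there. The lambda light chain gene Iglc3 stood at 91.7, 97.3, 85.7 and 99.0 UMIs per 100 Ighm UMIs, where B-like cells had 70.6, 72.4, 80.4 and 133. The control 1 value rests on 6 Iglc3 and 7 Ighm UMIs. Other light chain genes were further from the B-like cells. Igkc stood at 33.1, 48.8, 14.3 and 40.6 per 100 Ighm UMIs, against 137, 143, 135 and 132 in B-like cells. Mean Iglc2 was 68.4 CPM in the knockout and 2.29 in the control mice, against 1068 and 1752 CPM in B-like cells. The 2 control values behind the mean of 2.29 were 0 and 4.59 CPM. They come from sums of only 24173 UMIs in control 1 and 217972 in control 2, too few to compare the genotypes. A T-like cluster of 692 cells led by Foxp3, Tnfrsf4 and Il1rl1, of which Foxp3 encodes the transcription factor of regulatory T cells, had 426, 369, 350 and 393 CPM of Ighm, and 8.33, 5.45, 0.833 and 0.429 Ighd UMIs per 100 Ighm UMIs.

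Ighe, the constant gene of IgE, lies between Ighg2c and Igha and was counted with the other genes. In knockout 2 all but 3 of its 454 UMIs came from a single plasma-like cell, and control 1 had 60 UMIs, with at most 30 in a cell. Knockout 1 and control 2 had 3 and 1.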
